A study of Arabidopsis thaliana with 10 samples.

Results

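The genes described are 5 small heat-shock protein genes of Arabidopsis thaliana, AT2G29500, AT1G53540, AT1G52560, ATHSP22.0 (AT4G10250) and AT5G37670. They were chosen by name, as genes whose transcripts had differed most between far-red and D seedlings in wild type, or between gun1gun5 and wild type in that difference, and each had 1 probe set. They are 5 of 13350 genes that the array annotation ties to a probe set of their own. Because the wild-type response and its difference from gun1gun5 chose the genes, those values are given as a description with no test. The phyA arrays took no part in that choice.

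Small heat-shock proteins are chaperones that carry an alpha-crystallin domain, assemble into oligomers, and hold unfolding proteins in a form that ATP-driven chaperones of the HSP70 and HSP100 families can refold. Plants are known for a large family of them, with separate members for the cytosol and for most organelles, and their genes are mostly silent in unstressed vegetative tissue. Heat and other stresses that unfold proteins switch them on through heat-shock transcription factors. AT2G29500 and AT1G53540 encode class I proteins of the cytosol, AT1G52560 a mitochondrial protein, ATHSP22.0 a protein of the endoplasmic reticulum (ER), and AT5G37670 a protein of the peroxisome.

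Transcripts were measured in whole seedlings on 10 Affymetrix ATH1 arrays, each made from 300 pooled seedlings grown at 22 °C in continuous light. FR seedlings received far-red light and were then moved to white light, and D seedlings went into white light without it; the labels do not say what D stands for. The series asks what far-red preconditioning, meant to block chloroplast development, does to the seedling transcriptome. There were 2 arrays each of gun1gun5_FR and gun1gun5_D (a double mutant of GUN1 and GUN5, which act in chloroplast-to-nucleus signalling), 1 array each of phyA_FR and phyA_D (a null mutant of phytochrome A, the far-red photoreceptor), and 2 arrays each of WT_FR and WT_D (Col-0). The labels list no sucrose for the gun1gun5, phyA and WT_FR arrays, 1.5% sucrose for both WT_D arrays, and 5 µM norflurazon, a carotenoid synthesis inhibitor, for WT_D replicate 2. The far-red comparison in wild type therefore changes the medium as well as the light, and the effects of these cannot be told apart there, nor can those of genotype and medium between the D groups. The interaction used below, the gun1gun5 difference minus the WT difference, carries the same change of medium on its wild-type side. The listed medium is shared by the 3 FR groups. No single gun1 or gun5 mutant was included, so the 2 mutations cannot be told apart either.

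The values are linear probe-set intensities, scaled by the authors to a trimmed mean near 100 on every array. Array medians lay between 35.6 and 40.4, and 29.0% to 32.3% of an array's values were under 16, which is used here as the floor of measurement. Replicate arrays correlated at Spearman's rho of 0.979 to 0.983 over all probe sets. Of 11 listed organ markers 5 had a probe set, and both main organs of a seedling were represented: the green-tissue gene RCA read 2603.2 to 3677.3 over the 10 arrays and the root beta-glucosidase PYK10 read 2150.1 to 3268.7. Fewer expressing cells and less RNA per cell cannot be told apart in whole seedlings, and the number of arrays limits the precision. All 5 genes passed the filter on low values (a mean log2(value + 16) above 5.35), AT1G52560 narrowly at 5.42. AT1G52560, AT1G53540 and, by a small margin, AT2G29500 passed only through their wild-type arrays. The mutant arrays of these genes alone averaged under the cut. Levels are compared between groups and never between probe sets, whose brightness depends on the probes.

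All 5 genes had their highest group mean in WT_FR and the next in WT_D, and 4 had their lowest in gun1gun5_FR; AT1G52560 was under the floor in both mutants. Both WT_FR arrays lay above the other 8 arrays for 5 of 5 genes, a separation that 10.0% of the 13647 tested probe sets also showed. Since this pattern chose the genes, the count carries no weight as evidence.

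**Figure D1:**
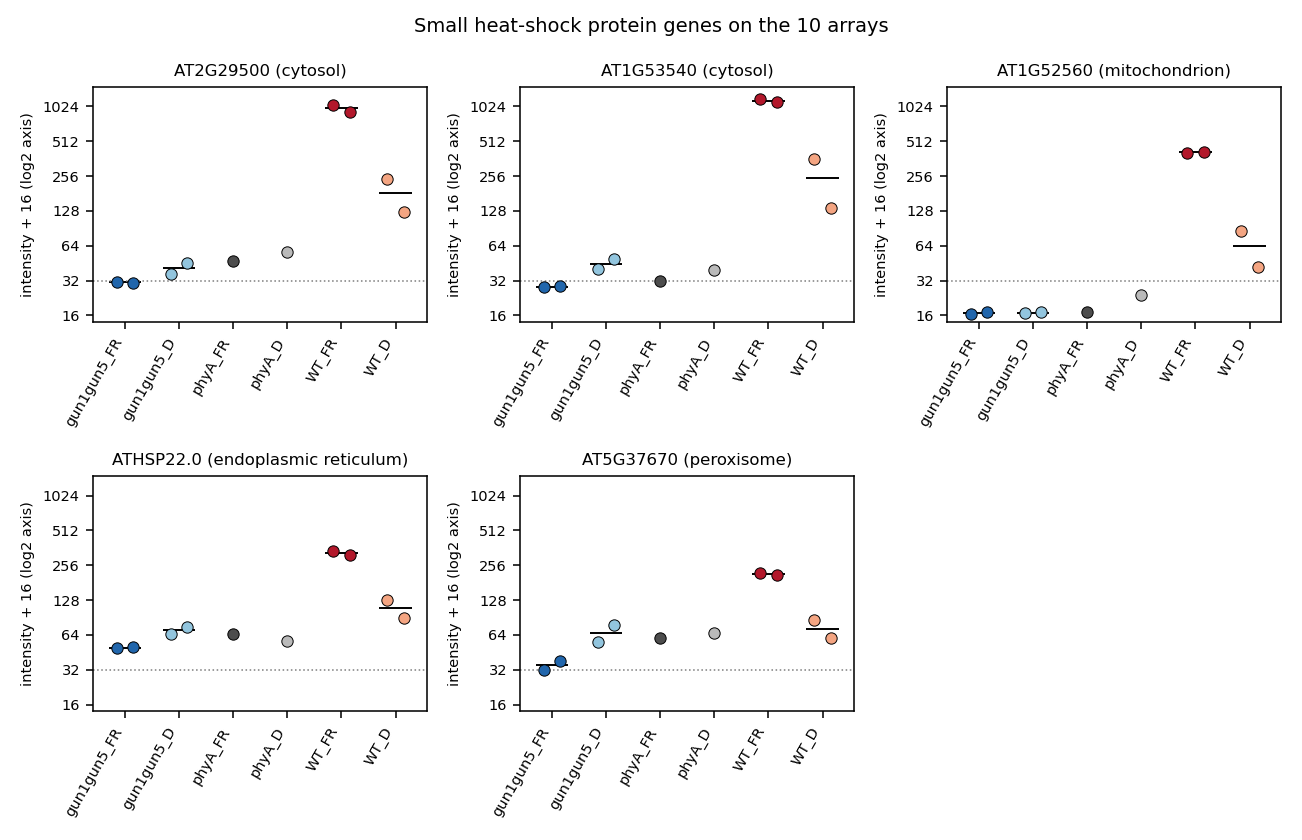
Intensity plus 16 on a log2 axis for the 5 small heat-shock protein genes, with the compartment of each protein in the panel title. Points are arrays, horizontal bars are means of 2 arrays, and the dotted line marks an intensity of 16. The WT_FR arrays are the highest in every panel, and all mutant arrays of AT1G52560 lie under the dotted line.

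Among the cytosolic class I genes, AT2G29500 read 15.2 and 14.5 in gun1gun5_FR, against 20.7 and 29.8 in gun1gun5_D. It read 31.2 in phyA_FR, against 40.2 in phyA_D. In wild type it read 1037.8 and 906.5 in WT_FR, against 227.9 and 109.1 in WT_D. The groups did not overlap within any genotype, and far-red was the higher side only in wild type. The order of its group means was WT_FR, WT_D, phyA_D, phyA_FR, gun1gun5_D and gun1gun5_FR, with no overlap between neighbours, although each phyA level is a single array.

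AT1G53540, the other class I gene, read 12.1 and 12.7 in gun1gun5_FR, against 24.3 and 33.5 in gun1gun5_D. It read 15.7 in phyA_FR, against 23.6 in phyA_D. In wild type it read 1165.5 and 1106.8 in WT_FR, against 341.5 and 118.8 in WT_D. The WT_FR arrays were close together while the WT_D arrays lay far apart. The phyA arrays and gun1gun5_D lay near one another, between 15.7 and 33.5, well below both WT_D arrays.

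The mitochondrial AT1G52560 was measured above the floor only in wild type. It read 0.5 and 1.3 in gun1gun5_FR, against 0.9 and 1.0 in gun1gun5_D, and 1.0 in phyA_FR, against 7.9 in phyA_D. In wild type it read 392.0 and 398.0 in WT_FR, against 70.0 and 26.1 in WT_D. All 6 mutant arrays were under 16, where values have no usable order, so no far-red response can be measured for this gene in either mutant.

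ATHSP22.0 of the ER read 33.0 and 34.4 in gun1gun5_FR, against 49.5 and 59.2 in gun1gun5_D. It read 49.8 in phyA_FR, against 40.3 in phyA_D, and was the only 1 of the 5 with the higher phyA value after far-red. In wild type it read 324.4 and 296.5 in WT_FR, against 111.9 and 74.1 in WT_D. Below WT_D, its gun1gun5_D arrays and phyA_FR array overlapped in level, and gun1gun5_FR was lowest.

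The peroxisomal AT5G37670 read 15.6 and 22.3 in gun1gun5_FR, against 39.3 and 61.9 in gun1gun5_D. It read 44.1 in phyA_FR, against 50.4 in phyA_D. In wild type it read 203.7 and 197.2 in WT_FR, against 69.6 and 43.8 in WT_D. This gene differed from the other 4 in the D groups: its WT_D, gun1gun5_D and phyA_D arrays overlapped, so the order among those 3 groups is not resolved.

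The size of the wild-type difference varied among the 5 genes, whose proteins fall in 4 compartments with 1 or 2 genes in each. The ratio of WT_FR to WT_D mean intensity was 8.22 for the mitochondrial AT1G52560, 5.77 and 4.94 for the cytosolic AT2G29500 and AT1G53540, 3.54 for the peroxisomal AT5G37670 and 3.34 for ATHSP22.0 of the ER. On the log2(value + 16) scale these differences were 2.77 ± 0.26, 2.50 ± 0.25, 2.39 ± 0.34, 1.60 ± 0.20 and 1.60 ± 0.17 (SE from limma, n = 2 arrays per group). Among 13647 tested probe sets ordered from the highest difference down, these genes stood at places 2, 12, 15, 68 and 66. The other family genes measured above the floor in wild type did not follow the same order of compartments. Their ratios were 4.99 for the cytosolic AT1G54050, 2.76 for the mitochondrial AT5G51440 and 2.39 for the cytosolic AT2G19310. The cytosolic AT5G54660 and AT4G21870 had ratios of 1.48 and 0.53. The median over the 5 genes was 2.39 and over all tested probe sets -0.01.

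The WT_D arrays differed from each other for every 1 of the 5 genes, and replicate 2, the array listed with norflurazon, was the lower. On the log2(value + 16) scale replicate 1 exceeded replicate 2 by 1.41 for AT1G53540, 1.03 for AT1G52560, 0.96 for AT2G29500, 0.52 for AT5G37670 and 0.51 for ATHSP22.0. A gap of at least 0.5 in this direction, a cut set after these values were seen, was shown by 3.30% of tested probe sets. With replicate 2 left out the wild-type difference was 2.26 for AT1G52560, 2.02 for AT2G29500, 1.69 for AT1G53540, 1.34 for AT5G37670 and 1.35 for ATHSP22.0. With replicate 1 left out it was 2.98 for AT2G29500, 3.09 for AT1G53540, 1.86 for AT5G37670 and 1.86 for ATHSP22.0, while AT1G52560 fell below the filter. Whether norflurazon plays a part in this gap was not tested.

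Some organ markers also differed between FR and D seedlings. The summed intensity of the 3 green-tissue markers (RCA, LHCB4.1 and LHCB4.2) was 6985.2 to 7169.2 in gun1gun5_FR, against 9836.1 to 10513.4 in gun1gun5_D, 9075.7 in phyA_FR, against 9226.4 in phyA_D, and 5971.6 to 6441.3 in WT_FR, against 7735.6 to 8276.0 in WT_D. That of the 2 root markers (PYK10 and AT3G01190) was 2202.9 to 2371.6 in gun1gun5_FR, against 2829.3 to 3198.7 in gun1gun5_D, 3173.1 in phyA_FR, against 3312.8 in phyA_D, and 2565.7 to 2695.4 in WT_FR, against 2667.9 to 2890.5 in WT_D. PYK10 makes up nearly all of the root sum. AT3G01190 alone read 43.0 and 35.2 in WT_FR, against 80.6 and 77.6 in WT_D, and its arrays overlapped in gun1gun5. The green-tissue sum was thus lower in FR than in D seedlings of both replicated genotypes. In wild type the difference was largest for LHCB4.2, with a mean of 894.8 in WT_FR against 2147.15 in WT_D. RCA had 2621.75 against 2798.1, and LHCB4.1 had 2689.9 against 3060.55. AT3G01190 was also lower in WT_FR, whereas the 5 small heat-shock genes were higher in WT_FR and mostly lower in gun1gun5_FR. The part of organ or cell composition in their levels was not tested.

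In gun1gun5, where FR and D seedlings share 1 listed medium, 4 of the 5 genes had both gun1gun5_FR arrays below both gun1gun5_D arrays. Of all tested probe sets, 31.2% showed this. The log2 difference was -0.92 ± 0.20 for AT5G37670, -0.65 ± 0.34 for AT1G53540, -0.50 ± 0.17 for ATHSP22.0 and -0.41 ± 0.25 for AT2G29500 (SE, n = 2 arrays per group). AT5G37670 had 2.67 times the mean intensity in gun1gun5_D and ATHSP22.0 had 1.61 times. The ratio of AT5G37670 rests on gun1gun5_FR values of 15.6 and 22.3, near the floor. The class I genes were at least 1.58-fold (AT2G29500) and 1.81-fold (AT1G53540) lower in gun1gun5_FR, bounds set by the floor of 16. Within the gun1gun5_D pair, replicate 2 was above replicate 1 for the 4 genes measured above the floor there, as for 47.9% of tested probe sets. This contrast enters the interaction that helped choose the genes, so its direction is not independent evidence.

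The gun1gun5 response minus the WT response was -3.04 ± 0.48 for AT1G53540, -2.91 ± 0.36 for AT2G29500, -2.78 ± 0.37 for AT1G52560, -2.51 ± 0.29 for AT5G37670 and -2.10 ± 0.23 for ATHSP22.0 (SE, n = 2 arrays in each of 4 groups). The value for AT1G52560 rests on the wild-type arrays alone, since its gun1gun5 difference was 0.00 ± 0.26 under the floor. The sizes depend on the pseudocount of 16: with 1 in its place the interaction was -3.63 for AT1G53540, -3.32 for AT2G29500, -3.20 for AT5G37670 and -2.42 for ATHSP22.0, and with 64 it was -2.42, -2.38, -1.60 and -1.54 for the same genes. Of these 4, AT5G37670 moved most.

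Only the phyA arrays gave a difference that is independent of how the genes were chosen. The spread used to test it came from the gun1gun5 and wild-type arrays, which chose the genes. Wild-type arrays also carried AT1G53540 and AT2G29500 past the filter. AT1G52560 had no signal in phyA to test, with both arrays under the floor. None of the other 4 genes passed in limma between phyA_FR and phyA_D (adjusted p = 0.978 to 0.991, 1 array per group, with its spread borrowed from the replicated groups). The log2 differences, with 95% intervals, were -0.25 for AT2G29500 (-1.05 to 0.54) and -0.32 for AT1G53540 (-1.38 to 0.73). They were -0.14 for AT5G37670 (-0.78 to 0.49) and 0.22 for ATHSP22.0 (-0.30 to 0.75). AT1G53540 was under the floor in phyA_FR, at 15.7, and above it in phyA_D, at 23.6, so its estimate is limited by the floor. Each interval includes 0. Each upper bound is below the wild-type difference of the same gene, but that difference chose the genes and also changes the listed medium. It has an error of its own as well, so setting the phyA interval beside it is a description and no test.

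Limma called 0% of the 13647 tested probe sets in phyA, where 699 had an unadjusted p under 0.05. With no filter, or without gun1gun5_D replicate 1 or replicate 2, the count was 1. The phyA_FR array was the lower for 3 of these 4 genes, against 47.4% of tested probe sets. As a description, since WT chose the genes, the phyA response minus the WT response was -2.75 ± 0.44 for AT2G29500, -2.71 ± 0.58 for AT1G53540, -1.74 ± 0.35 for AT5G37670 and -1.38 ± 0.29 for ATHSP22.0 (SE).

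**Figure D2:**
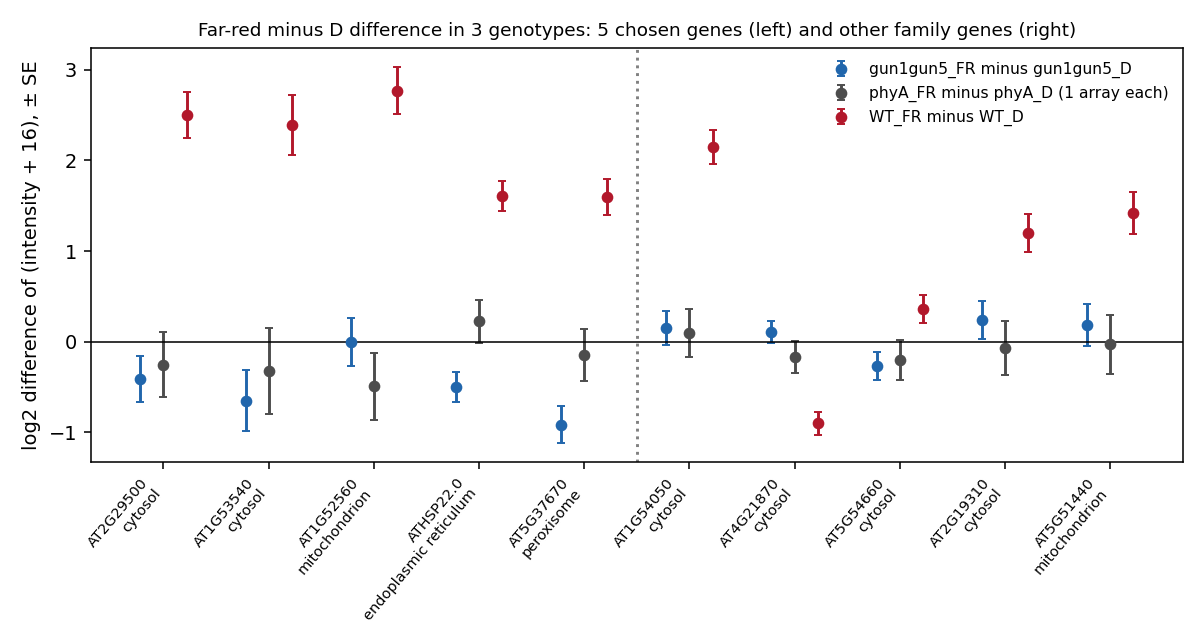
Log2 difference of FR minus D, on intensity plus 16, for the 5 chosen genes (left of the dotted line) and the 5 tested other genes of the family (right). Points are limma estimates in gun1gun5, phyA and WT with SE bars; phyA has 1 array per group. The 5 chosen genes lie between 1.60 and 2.77 in WT and at or below 0.00 in gun1gun5, and AT4G21870 is the gene that lies below 0 in WT (-0.90); the mutant points of AT1G52560 come from values under 16.

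After far-red light, on 1 listed medium, all 5 genes were lower in both mutants than in wild type. Relative to WT_FR, gun1gun5_FR was at least 71.0-fold lower for AT1G53540, at least 60.8-fold lower for AT2G29500 and at least 24.7-fold lower for AT1G52560, each a bound set by the floor. It was 10.6-fold lower for AT5G37670, whose gun1gun5_FR values were near the floor, and 9.21-fold lower for ATHSP22.0 in mean intensity. The phyA_FR array was at least 71.0-fold lower than WT_FR for AT1G53540, 31.2-fold lower for AT2G29500, at least 24.7-fold lower for AT1G52560, 6.23-fold lower for ATHSP22.0 and 4.55-fold lower for AT5G37670. A log2 difference of -1 or lower was shown by 3.08% of tested probe sets in gun1gun5_FR minus WT_FR and by 1.97% in phyA_FR minus WT_FR. Both comparisons share the WT_FR arrays that chose the genes, so they are given side by side without a test.

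Among the D groups, which differ in listed sucrose, the differences were smaller. For 4 of 5 genes both WT_D arrays were above both gun1gun5_D arrays, as for 27.5% of tested probe sets, and AT5G37670 was the exception. Relative to WT_D, gun1gun5_D was 7.96-fold lower for AT1G53540, 6.67-fold for AT2G29500, at least 3.00-fold for AT1G52560, 1.71-fold for ATHSP22.0 and 1.12-fold for AT5G37670. The phyA_D array was 9.75-fold lower than WT_D for AT1G53540, 4.19-fold for AT2G29500, at least 3.00-fold for AT1G52560, 2.31-fold for ATHSP22.0 and 1.13-fold for AT5G37670.

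Across the 10 arrays the profiles of the 5 genes correlated pairwise at Pearson's r of 0.908 to 0.992 on the log2(value + 16) scale, a description of arrays that share groups. Without the WT_FR arrays, AT1G52560 was above the floor only in WT_D, so its correlations rest on the WT_D arrays. Over these 8 arrays r was 0.968 to 0.975 among AT2G29500, AT1G53540 and AT1G52560. It was 0.865 to 0.951 between these and ATHSP22.0, and 0.548 to 0.673 between these and AT5G37670. Between AT5G37670 and ATHSP22.0 r was 0.772 over these 8 arrays. Thus AT5G37670 was the least like the others with the WT_FR arrays set aside. The same held over all 10 arrays, where its r was 0.908 to 0.955, against 0.978 to 0.992 for pairs without it.

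The 10 genes most like the mean profile of the 5, by Pearson's r over 10 arrays among 7374 tested single-gene probe sets, were AT5G48540 (0.996), AT2G32190 (0.994), cox2 (0.981), DER1 (0.978), UGT85A2 (0.976), AT1G19020 (0.973), AT1G02360 (0.970), AT5G51440 (0.970), AT1G54050 (0.969) and AT5G10695 (0.969). AT5G51440 and AT1G54050 are small heat-shock protein genes that the choice had left out. DER1 encodes a derlin, an ER membrane protein of misfolded-protein removal, cox2 a mitochondrion-encoded subunit of cytochrome c oxidase, and UGT85A2 a glycosyltransferase. AT2G32190 had mean intensities of 18.8 in gun1gun5_FR, 30.15 in gun1gun5_D, 41.4 in phyA_FR, 43.4 in phyA_D, 543.95 in WT_FR and 147.2 in WT_D.

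Of 16 other small heat-shock family genes listed by family, 6 had a probe set of their own and 5 were tested. In gun1gun5 limma called 0 of 5, with 0 at an unadjusted p under 0.05, where 14.4% of tested probe sets were called, 6.38% higher and 8.06% lower. In phyA limma called 0 of 5, with 0 at an unadjusted p under 0.05. In wild type 3 of these 5 rose and 1 fell, where limma called 22.4% of tested probe sets, 9.72% higher and 12.6% lower. The median log2 difference of the 5 was 0.15 in gun1gun5, -0.07 in phyA and 1.20 in WT, beside 0.00, 0.01 and -0.01 over all tested probe sets.

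AT1G54050, a cytosolic protein outside class I, read 44.1 and 46.8 in gun1gun5_FR, against 37.2 and 41.3 in gun1gun5_D, and 40.0 in phyA_FR, against 36.3 in phyA_D. It rose in wild type, to 394.9 and 412.9 in WT_FR, against 103.1 and 58.8 in WT_D (log2 difference 2.15 ± 0.19, SE, limma adjusted p = 6.11e-05). Its response was lower in gun1gun5 by the interaction, the single lower call among the 5 (-1.999 ± 0.27, limma adjusted p = 0.00412), where limma called 2.82% of tested probe sets, 2.03% lower and 0.791% higher.

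AT5G51440, a mitochondrial protein, read 61.0 and 56.2 in gun1gun5_FR, against 47.1 and 52.2 in gun1gun5_D, and 41.0 in phyA_FR, against 42.2 in phyA_D. It rose in wild type, with 339.9 and 353.5 in WT_FR, against 168.6 and 83.0 in WT_D (1.42 ± 0.23, limma adjusted p = 0.00189). Both mitochondrial genes were thus far higher in WT_FR than in any mutant array. The interaction of AT5G51440 was -1.24 ± 0.32 and did not pass (limma adjusted p = 0.0754).

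AT2G19310 read 194.2 and 211.0 in gun1gun5_FR, against 130.0 and 217.3 in gun1gun5_D, and 198.7 in phyA_FR, against 209.3 in phyA_D. It rose in wild type, with 417.4 and 443.1 in WT_FR, against 153.2 and 206.1 in WT_D (1.20 ± 0.21, limma adjusted p = 0.00276). It was well above the floor in every group, and its WT_D arrays overlapped those of gun1gun5_D.

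AT4G21870, another cytosolic family member outside class I, went the other way. It read 578.8 and 605.2 in gun1gun5_FR, against 497.6 and 603.1 in gun1gun5_D, and 719.3 in phyA_FR, against 809.0 in phyA_D. It fell in wild type, with 439.7 and 398.5 in WT_FR, against 781.6 and 809.9 in WT_D (-0.90 ± 0.13, limma adjusted p = 0.000829). Its interaction was 1.01 ± 0.18 (limma adjusted p = 0.0143), a call that ended without WT_D replicate 2 (0.98), gun1gun5_FR replicate 1 (1.04) or gun1gun5_FR replicate 2 (0.98). AT5G54660 did not pass in wild type (0.36 ± 0.15, limma adjusted p = 0.121), and the alpha-crystallin-type gene AT5G47600, at 6.5 to 15.2 on all arrays, was below the filter.

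**Figure D3:**
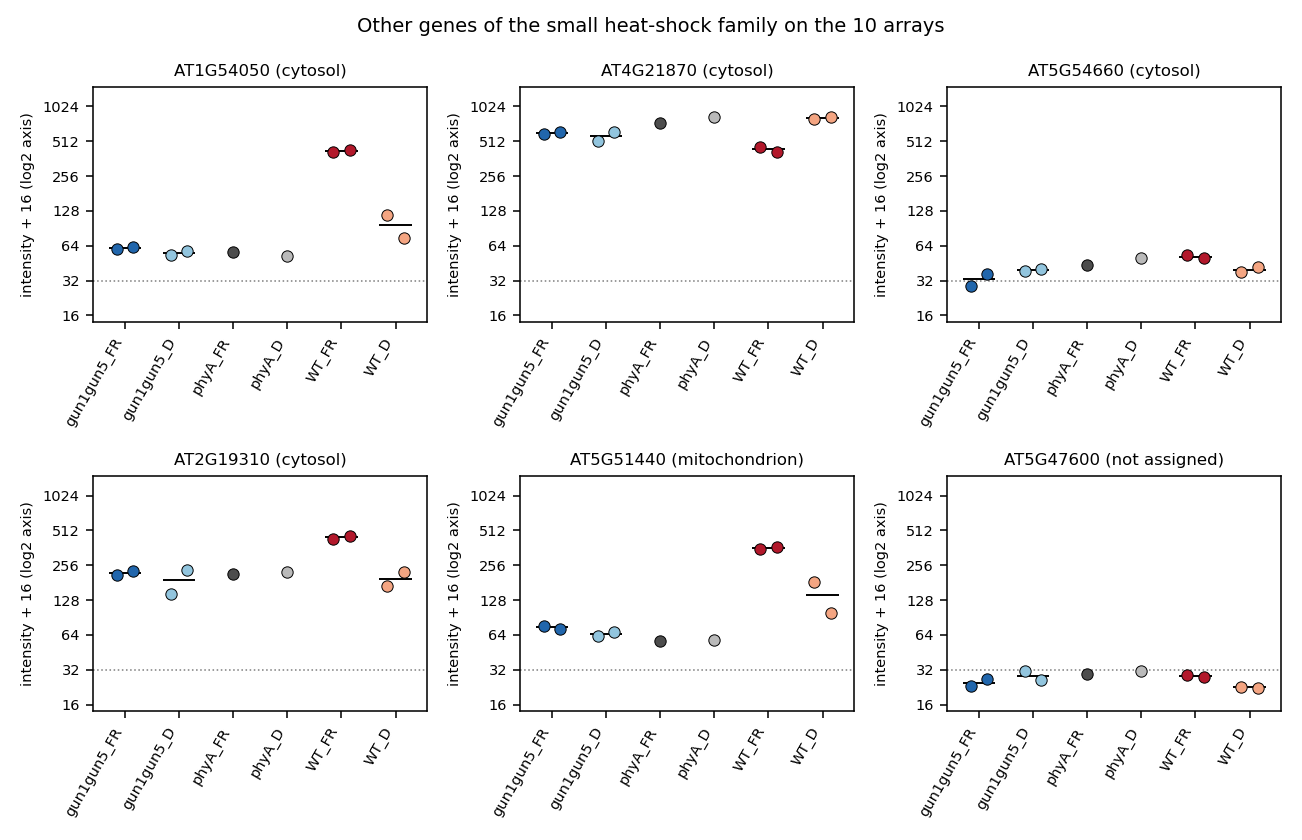
Intensity plus 16 on a log2 axis for the 6 other family genes with a probe set of their own. Points are arrays, horizontal bars are means of 2 arrays, and the dotted line marks an intensity of 16. AT1G54050, AT2G19310 and AT5G51440 are highest in WT_FR, AT4G21870 is lowest there, and AT5G47600 is under the dotted line on all arrays.

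The chaperones that work with small heat-shock proteins were compared next. Over 113 other heat-shock, chaperone and folding genes listed by family, 29 had a probe set of their own and 24 were tested; none of 22 listed heat-shock factor genes, which include the factors' binding protein, had one. In gun1gun5 4 of 24 rose and 0 fell (median 0.16), where 14.4% of all tested probe sets were called, and in phyA limma called 0 of 24, with 1 at an unadjusted p under 0.05 (median -0.03). In wild type 18 of 24 rose and 1 fell, with a median of 0.85, where 22.4% were called. By the interaction 6 had a lower and 1 a higher response in gun1gun5, where 2.82% were called. Without gun1gun5_FR replicate 1 the count was 0 in gun1gun5 and 2 by the interaction, and without gun1gun5_FR replicate 2 it was 2 and 4. Without WT_D replicate 2 it was 4 by the interaction and 15 in wild type.

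By compartment, 2 of 16 tested cytosolic and 2 of 5 ER genes rose in gun1gun5, with medians of 0.13 and 0.60, where 6.38% of all tested probe sets rose. In wild type 11 of 16 cytosolic genes rose and 1 fell, and 5 of 5 ER genes rose, with medians of 1.05 and 0.73, where 9.72% rose. The single tested mitochondrial gene, AT5G51440, rose in wild type, and the single plastid gene, Cpn60beta2, a chaperonin subunit, did not pass (0.53 ± 0.26, limma adjusted p = 0.173). By the interaction 5 of 16 cytosolic genes had a lower and 1 a higher response, and 0 of 5 ER genes passed. Of all tested probe sets, 2.03% had a lower and 0.791% a higher response, so 0 of 5 says little about the ER genes. The difference between compartments was not tested.

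Among HSP70 genes, whose products refold proteins with ATP, AT3G09440 rose in gun1gun5 by 0.83 ± 0.15 (SE, limma adjusted p = 0.00721), a call that ended without gun1gun5_FR replicate 1 (0.60). It also rose in wild type, by 1.14 ± 0.15 (limma adjusted p = 0.000722). Hsp70-2 rose in wild type by 0.97 ± 0.14 and had an interaction of -1.002 ± 0.20 (limma adjusted p = 0.0253), which ended when any 1 of WT_FR replicates 1 and 2, WT_D replicate 2, gun1gun5_FR replicates 1 and 2 and gun1gun5_D replicate 2 was left out (-1.04 to -0.87). AT4G16660, an ER member, rose in wild type by 0.79 ± 0.19. That call ended without WT_FR replicate 1 (0.77), WT_FR replicate 2 (0.82) or WT_D replicate 2 (0.63). With no filter on low values the AT4G16660 call (limma adjusted p = 0.0554) and the Hsp70-2 interaction call (0.0615) ended too. The phyA differences of AT3G09440 and Cpn60beta2 were 0.19 and -0.12.

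Of the tested genes listed as HSP70 and HSP90 partners or other heat-response genes, such as HSA32, 8 of 10 rose in wild type. Of all tested probe sets, 9.72% rose in wild type and 6.38% in gun1gun5, and 2.03% had a lower response in gun1gun5 by the interaction. The 8 genes included Fes1A, an HSP70 exchange factor (2.30 ± 0.24), and the prolyl isomerase AT5G48570 (2.29 ± 0.30). The HSP70-HSP90 adaptor Hop3 (1.75 ± 0.21) and the J-domain gene AT2G20560 (1.28 ± 0.13) also rose. Fes1A was the single one that rose in gun1gun5 (1.36 ± 0.24, limma adjusted p = 0.00607), a call that ended without gun1gun5_FR replicate 1 (1.14). The response was lower in gun1gun5 for Hop3 (-1.84 ± 0.30), HSA32, a gene needed for lasting heat tolerance (-1.35 ± 0.23), Hop2 (-1.22 ± 0.25) and AT2G20560 (-1.14 ± 0.18), with limma adjusted p of 0.00961 to 0.0300. Without gun1gun5_FR replicate 1 the calls on Hop3 (-1.66) and AT2G20560 (-1.13) ended. With no filter on low values those on HSA32 (limma adjusted p = 0.0507), Hop3 (0.0638) and Hop2 (0.0907) ended. The Hop2 call ended when any single gun1gun5 or wild-type array except WT_D replicate 1 was left out (-1.36 to -0.95). In phyA, Fes1A was at -0.26 and Hop2 at 0.37.

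All 4 tested ER folding genes rose in wild type: the DnaJ-type ATERDJ3B (0.79 ± 0.21), the calnexin AT5G07340 (0.73 ± 0.12), the derlin DER1 (0.69 ± 0.14) and the calreticulin CRT1b (0.56 ± 0.15), with limma adjusted p of 0.00230 to 0.0222. Of all tested probe sets, 9.72% rose in wild type and 6.38% in gun1gun5. CRT1b (0.72 ± 0.15) and AT5G07340 (0.60 ± 0.12) also rose in gun1gun5 (limma adjusted p = 0.0111 for each), where ATHSP22.0 of the same compartment had -0.50. In wild type the CRT1b call ended without any 1 wild-type array (0.52 to 0.61), and that on DER1 without WT_D replicate 2 (0.54). The ATERDJ3B call in wild type ended without WT_FR replicate 2 (0.72) or WT_D replicate 2 (0.61). It also ended with no filter on low values (limma adjusted p = 0.0637). In gun1gun5 the AT5G07340 call did not survive the loss of FR replicate 1 (0.67), FR replicate 2 (0.52) or D replicate 2 (0.61). The CRT1b call in gun1gun5 was lost on removal of FR replicate 1 (0.66), FR replicate 2 (0.78) or D replicate 1 (0.51). The interactions of CRT1b (0.16) and ATERDJ3B (-0.11) did not pass, and in phyA these genes were at -0.07 and 0.10.

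**Figure D4:**
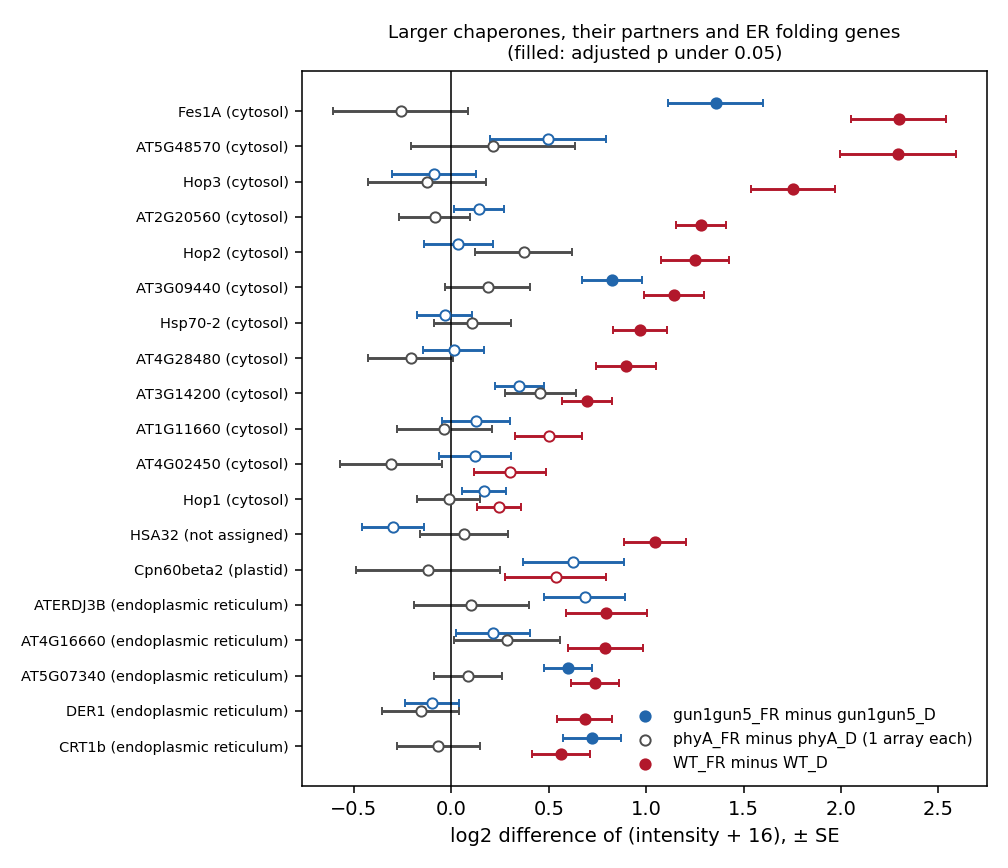
Log2 difference of FR minus D, on intensity plus 16, for 19 tested larger chaperones, partner proteins, other heat-response genes and ER folding genes, grouped by compartment. Points are limma estimates in gun1gun5, phyA and WT with SE bars, filled where the adjusted p was under 0.05; phyA has 1 array per group. Fes1A and AT5G48570 lie furthest to the right in WT (2.30 and 2.29), and no phyA point is filled.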

How the data were processed

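Biotin-labelled RNA of 10 seedling pools was hybridised to 1-colour ATH1 arrays, per the labels' protocols. The deposited table holds linear probe-set intensity for 22810 probe sets; the summarisation software is not given in the sources used here, and the trimmed mean of each array (100.008 to 100.01) shows the authors' scaling. Probe sets were named from the platform annotation and RefSeq (TAIR10.1): 13513 had 1 gene, 503 several, and 8730 had no gene in that annotation and are unnamed here. A gene with several probe sets was taken at the brightest. Cross-hybridisation between the related class I genes was not tested.

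Values were taken as log2(value + 16). Non-control probe sets above the 40th percentile of mean level, 13647 in all, were fitted with 6 group means in limma 3.58.1 (R 4.3.3, eBayes with a variance trend, residual degrees of freedom 4, prior 6.30). Tests were two-sided, with p-values adjusted by Benjamini and Hochberg over all tested probe sets within a contrast, with a threshold of 0.05. No label states that replicates came from separate cultures, so the p-values cover only the spread among these arrays, which may be technical. The WT_D arrays differ in listed norflurazon, and the gap between them enters the spread behind every SE and p-value. Where all arrays of a group were under 16, a fold is a bound against 16. The procedure was tested on simulated data.

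The 5 genes, the family lists and the naming rule were chosen with earlier results of these data known. The rule named every other small heat-shock gene with a probe set and, from each remaining list, up to 4 genes past the threshold with the largest difference in a contrast, or the 2 brightest if none passed, and the 10 genes most like the 5 in profile. Genome coordinates and sequences are not used here. Alternatives were pseudocounts of 1 and 64, quantile normalization, no filter, a 60th-percentile filter, eBayes without the trend, the replicate number as a block, and leaving out each array.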

Additional observations from a re-analysis of the deposited data

Results flagged for a closer look

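The difference between FR and D seedlings differed between gun1gun5 and WT, by the interaction in limma, for 7 of the 24 tested genes outside the 5 chosen ones, where 2.82% of all tested probe sets were called. The wild-type side of this interaction also changes the listed medium, and the effects cannot be told apart. The gun1gun5 response minus the WT response was -1.999 for AT1G54050, -1.84 for Hop3, -1.35 for HSA32, -1.22 for Hop2, -1.14 for AT2G20560 and -1.002 for Hsp70-2, and 1.01 for AT4G21870. The calls on Hop2, Hsp70-2, Hop3, AT2G20560 and AT4G21870 ended when some single array was left out, and those on HSA32, Hop2, Hop3 and Hsp70-2 ended with no filter; the call on AT1G54050 held under every alternative in which it was tested. For 4 of the 5 chosen genes both gun1gun5_FR arrays were below both gun1gun5_D arrays while both WT_FR arrays were above both WT_D arrays. Taken singly, 31.2% of tested probe sets showed the gun1gun5 separation and 28.8% the WT separation. The share showing both was not counted. The gun1gun5 response minus the WT response was -3.04 for AT1G53540, -2.91 for AT2G29500, -2.51 for AT5G37670 and -2.10 for ATHSP22.0. This difference helped to choose these genes and was not tested.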

How the results depend on the processing

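The 5 genes kept their direction in WT and in the interaction under every alternative in which they were tested. WT differences ranged from 1.14 (AT5G37670, pseudocount 64) to 3.09 (AT1G53540, without WT_D replicate 1). AT1G52560 was below the filter with a pseudocount of 1, with the filter at the 60th percentile, and without WT_FR replicate 1, WT_FR replicate 2 or WT_D replicate 1, and AT5G37670 with the filter at the 60th percentile, so they have no value there. In phyA no call was made under any alternative on the 4 genes above the floor on at least 1 phyA array (limma adjusted p of 0.913 or higher). AT1G53540 was above it in phyA_D only. Leaving out a phyA array leaves no value. The count of other heat-shock and chaperone genes called was 0 to 5 in gun1gun5, 15 to 20 in WT and 2 to 9 by the interaction when 1 array was left out, and 3 by the interaction with no filter. Over all probe sets, leaving out 1 array gave 506 to 2160 calls in gun1gun5, 0 to 1 in phyA, 1838 to 3071 in WT and 149 to 395 by the interaction; with no filter there were 1251 in gun1gun5, 207 by the interaction and 1 in phyA. The cause was not tested. Same-numbered arrays deviated together only weakly (correlations 0.06 to 0.19 over 6 pairs of groups), so the numbers were not taken as pairs; with the replicate block 5 of the other genes were called in gun1gun5, 0 in phyA, 20 in WT and 10 by the interaction, beside 2362, 0, 3417 and 501 of all probe sets. Signal near the floor of 16 limits the mutant values of AT1G52560, AT2G29500 and AT1G53540. It also limits the gun1gun5_FR values of AT5G37670 (15.6 and 22.3).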

Other observations

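AT1G71000, a DnaJ-type gene listed among the partner proteins, was below the filter and untested, and is named because of its values. It read 0.8 and 3.6 in gun1gun5_FR, against 1.8 and 2.4 in gun1gun5_D, 6.9 in phyA_FR, against 4.6 in phyA_D, and 118.6 and 83.3 in WT_FR, against 16.7 and 1.8 in WT_D. Both WT_FR arrays were thus well above the floor of 16 and all mutant arrays below it, as for AT1G52560.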
